A study of Mus musculus with 4 samples.

Results

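Hox genes encode homeodomain transcription factors that give cells along the head-to-tail axis their positional identity. In mammals they lie in 4 clusters, HoxA to HoxD, and genes at the same position in different clusters form paralog groups, numbered from the 3′ (anterior) end to the 5′ (posterior) end of a cluster. Lung mesenchyme is known for expressing the anterior and middle genes, Hoxa5 above all, which is needed for normal lung development. Silent Hox genes are mainly held by Polycomb complexes, and DNA methylation, which Dnmt1 copies to new strands at each cell division, is a further layer of repression at some promoters. The members described here are every row of the deposited count table whose gene name is Hox, a cluster letter and a number. They are 27 of 31247 rows, with 10 in HoxA, 9 in HoxB, 6 in HoxC and 2 in HoxD. GENCODE M21 names 39 such genes, and those with no row were not analysed here.

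RNA came from Pdgfrb-GFP positive cells, called myofibroblasts by the labels, isolated by sorting from the lungs of mice aged 7 days with DAPI used to detect dead cells. The wild-type (WT) group carries the PDGFRb-GFP reporter. The conditional knockout (CKO) group carries that reporter together with Tbx4-rtTA, Tet-O-Cre and Dnmt1-D/D. In it Cre depends on a reverse tetracycline transactivator placed under Tbx4, a gene of lung mesenchyme, so that cells without Tbx4 activity need not lose Dnmt1. No inducer, age at induction or sex is given in the sources used here. The protocol lists 2 lungs of each genotype and 300000 to 350000 cells from each sample, and each group has 2 libraries, named A and B by column order with no pairing between genotypes. The column names of WT B and both CKO libraries share a number that the name of WT A lacks, and what it stands for is not given. P-values measure the spread between 2 libraries of a genotype.

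Depth ran from 23071657 to 26420648 counted reads. WT B had reads on 27643 genes, against 21883 to 22532 in the other libraries, and CKO A alone had reads of the Y-linked gene Ddx3y (2494, against 0 in the others). Dnmt1 stood at 144 and 115 CPM (reads scaled to a common library size) in WT A and B and 78.0 and 29.5 CPM in CKO A and B, and was not called (log2 -1.27 ± 0.57, SE, edgeR adjusted p = 0.310). Pdgfrb, the reporter gene, stood at 506 and 477 CPM in WT and 373 and 317 in CKO (log2 -0.51 ± 0.13, edgeR adjusted p = 0.0546). Of the contractile and myofibroblast markers 11 of 11 were detected, with a summed level of 44931 to 46002 CPM in WT and 47595 to 51556 in CKO. Markers of other lung fibroblasts summed to 31372 to 32514 CPM in WT and 34706 to 49160 in CKO. Detection alone does not identify the sorted cells, since markers of every cell type listed were detected. Chondrocyte markers summed to 374 CPM in WT A and to 47.2 to 83.7 in the other 3 libraries.

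The promoters below show where CG dinucleotides, the target of Dnmt1, lie before 3 start sites on which the later contrasts turn. Each is the run of 250 bases before the RefSeq start site on build GRCm38.p6, written in the direction of the gene with every CG in capitals. Hoxb8 was called higher in CKO, Hoxb4 of the same cluster was not and was picked for this contrast after its values were seen, and Hoxa5 was the HoxA gene with the highest level.
Hoxb8, chr11:96281655-96281904, plus strand: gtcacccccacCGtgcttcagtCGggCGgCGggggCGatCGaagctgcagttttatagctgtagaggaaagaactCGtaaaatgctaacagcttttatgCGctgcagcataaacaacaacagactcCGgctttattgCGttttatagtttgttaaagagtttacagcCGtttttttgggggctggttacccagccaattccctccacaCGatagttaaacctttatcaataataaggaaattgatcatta
Hoxb4, chr11:96318017-96318266, plus strand: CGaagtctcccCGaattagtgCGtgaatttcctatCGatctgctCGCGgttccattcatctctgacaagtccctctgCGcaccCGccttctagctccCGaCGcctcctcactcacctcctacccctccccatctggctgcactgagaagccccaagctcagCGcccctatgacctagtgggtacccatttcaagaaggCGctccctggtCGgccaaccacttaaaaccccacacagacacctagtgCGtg
Hoxa5, chr6:52204588-52204837, minus strand: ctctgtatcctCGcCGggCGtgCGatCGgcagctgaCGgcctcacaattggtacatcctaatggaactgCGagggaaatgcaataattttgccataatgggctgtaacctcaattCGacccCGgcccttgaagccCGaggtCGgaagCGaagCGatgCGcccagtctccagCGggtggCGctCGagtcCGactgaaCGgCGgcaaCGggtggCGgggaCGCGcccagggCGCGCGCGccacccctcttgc
The Hoxb8 window held 12 CG, the Hoxb4 window 14 and the Hoxa5 window 28. Their CG counts were 0.97, 0.76 and 1.11 times those expected from base content. RefSeq windows were found for 14 of the 27 members (16 windows), with a median of 12.5 CG and a range of 2 to 35. Over all 32851 windows the median was 6, and at least 1 CG was found in 92.1% of them. At least 10 CG were found in 9 of the 16 Hox windows (56.2%) and in 37.8% of all windows. No GENCODE M21 exon overlapped the 3 windows shown. The counts describe sequence, and methylation was not measured here.

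The Hox genes of these cells were those of the HoxA and HoxB clusters. HoxB genes held 65.0% to 69.9% of Hox reads in WT and 68.9% to 70.4% in CKO, and HoxA genes held 30.0% to 34.9% and 29.1% to 30.1%. HoxC genes held 0.0746% and 0.0890% in WT and 0.473% and 1.08% in CKO. The 2 HoxD rows, Hoxd9 and Hoxd11, had at most 1 read in any library. Summed over all members, they reached 412 and 339 CPM in WT A and B and 354 and 344 CPM in CKO A and B, so the total in CKO lay within the WT range.

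**Figure D1:**
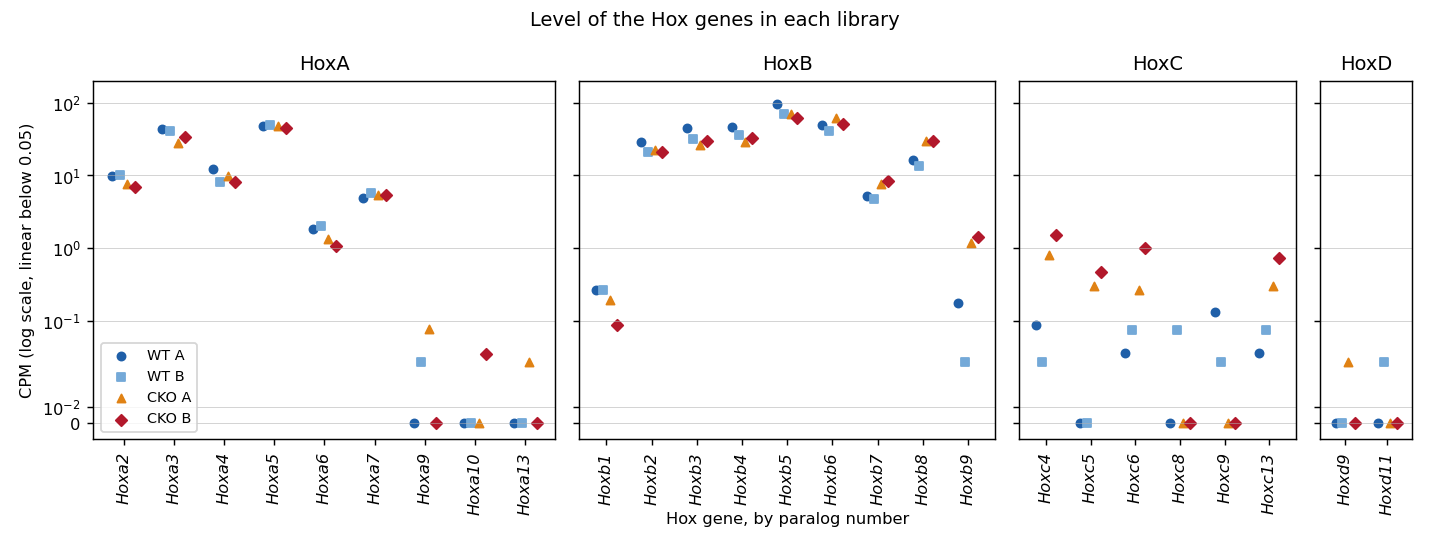
Level of the Hox genes reported here in CPM (vertical axis, logarithmic above 0.05 and linear below it), by cluster and paralog number, with 1 symbol per library. HoxA genes from Hoxa9 on, HoxD genes and most HoxC genes in WT lie near 0, and CKO symbols stand above WT symbols for Hoxb6 to Hoxb9, Hoxc4, Hoxc5, Hoxc6 and Hoxc13.

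Levels were compared between genes as RPKM, which is CPM divided by the kilobases of merged GENCODE M21 exons. In WT the highest were Hoxb5 at 29.9 ± 6.20, Hoxa5 at 26.3 ± 0.509 and Hoxb6 at 23.1 ± 3.26 (SD, n = 2), 3 neighbours whose library values overlapped in part. Hoxb4 followed at 16.1 ± 2.67, below all libraries of those 3. Hoxb3, Hoxb2, Hoxa3, Hoxa4, Hoxb8 and Hoxa2 ran from 8.99 ± 2.19 down to 5.65 ± 0.0893, each within the spread of its neighbours. Hoxb7, Hoxa6, Hoxa7 and Hoxb1 ran from 3.24 ± 0.236 to 0.113, and Hoxb9, the HoxC genes, the HoxD genes and HoxA genes from Hoxa9 on lay at or under 0.0414. Summed by RPKM in WT, paralog group 5 was highest at 52.2 to 60.3, followed by groups 6 (23.1 to 27.5) and 4 (19.3 to 25.6). Group 7, at 5.04 to 5.10, lay under group 3, at 14.2 to 17.8, and group 9 was at 0.0369 to 0.122. In CKO Hoxb6 (28.7 ± 3.98), Hoxa5 (24.7 ± 0.906) and Hoxb5 (24.0 ± 2.22) were highest, and Hoxb8, at 11.4 ± 0.107, lay beside Hoxb4 at 12.0 ± 1.09.

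The comparison of CKO with WT asks which genes differ in the Dnmt1 knockout, in whose libraries Dnmt1 itself was not called lower. A low-count filter passed 16 of the 27 members, and edgeR's quasi-likelihood test called 3 of them higher in CKO, Hoxb8, Hoxb9 and Hoxc4, and 0 lower, at an adjusted p under 0.05. Over all 15210 genes tested, 4.85% were called higher and 2.75% lower. At an unadjusted p under 0.05 there were 4 members higher and 4 lower, 8 of 16 members, beside 25.2% of all genes tested. DESeq2 also called 3 higher and 0 lower, beside 5.46% and 2.76% of its genes, and limma-voom 3 and 0 beside 3.96% and 2.29%. Hoxb9 and Hoxc4 passed the filter through their CKO reads alone, so they could enter the test only by differing. In bulk RNA more cells expressing a gene and more RNA per cell cannot be told apart. The median log2 change of the 16 members was -0.13, against -0.01 over all genes tested. The 2 groups did not overlap for 12 of the 16 members, 6 with CKO above and 6 with CKO below, and for 57.1% of all genes tested. With WT A left out 3 members were called higher (background 2.31%), with WT B left out 0 (1.56%), with CKO A left out 3 (7.88%) and with CKO B left out 1 (3.80%). The background of lower calls was 1.33%, 0.574%, 3.38% and 2.62% in the same order. RLE factors (4.61% higher and 2.24% lower of all genes) and library size alone (4.85% and 3.68%) each gave 3 members higher. With no filter on low counts 6 members were called higher and 1 lower (4.94% and 2.93%), and with a mean CPM of at least 1 there was 1 higher (4.39%, and 2.46% lower). With 2 libraries against 2, an exact permutation test of a single gene cannot go below 0.333.

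**Figure D2:**
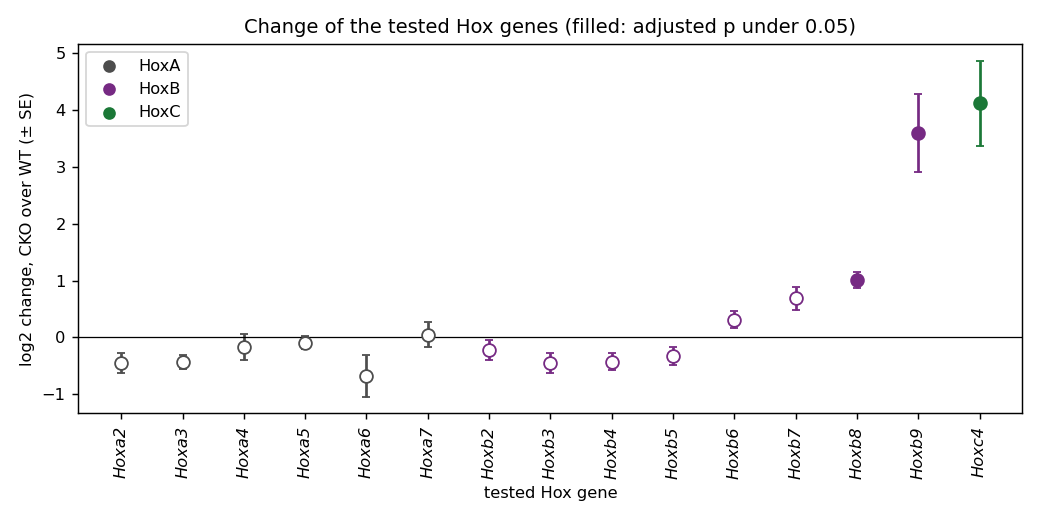
Change of the tested Hox genes reported here in CKO against WT on the log2 scale (vertical axis, bars are SE, n = 2 per genotype), ordered by cluster and paralog number, with filled circles at an edgeR adjusted p under 0.05. In HoxB the values run from -0.45 at Hoxb3 to 3.60 at Hoxb9, and the filled circles are Hoxb8, Hoxb9 and Hoxc4.

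In HoxB 2 of 8 tested genes, Hoxb8 and Hoxb9, were called higher in CKO, and of these Hoxb8 alone was above the filter on low counts in both genotypes. Whether change goes with position in the cluster was not tested. Hoxb8, a middle-cluster gene known for roles in spinal cord and blood progenitors (ENSMUSG00000056648, chromosome 11, 96281905 to 96285315, GRCm38), was at 16.4 and 13.5 CPM in WT A and B and 30.3 and 29.9 CPM in CKO A and B. Both CKO libraries lay far above both WT libraries and close to each other. The change was 2.01-fold (log2 1.01 ± 0.14, SE, edgeR adjusted p = 0.00832). With 1 library left out its call was lost only without WT B (log2 0.88, edgeR adjusted p = 0.0674).

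Hoxb9, the next gene towards the 5′ end, known for patterning the thoracic skeleton (chromosome 11, 96271457 to 96276595), had 4 and 1 reads in WT A and B and 31 and 33 reads in CKO A and B. The WT libraries were near silent and the CKO libraries low but alike. The fitted change was 12.1-fold (log2 3.60 ± 0.69, edgeR adjusted p = 0.0210). It was not called without WT B (log2 2.86, edgeR adjusted p = 0.128) or without CKO B (log2 3.46, edgeR adjusted p = 0.0786), and was 4.95 on the log2 scale without WT A. Even in CKO its level, 0.505 ± 0.0668 RPKM on merged exons, was far under that of Hoxb8.

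Hoxb7, on the 3′ side of Hoxb8, was at 5.26 and 4.75 CPM in WT A and B and 7.68 and 8.49 CPM in CKO A and B. The groups did not overlap, and the log2 difference of 0.69 ± 0.20 did not pass (edgeR adjusted p = 0.0777). With no filter on low counts it was called (edgeR adjusted p = 0.0418). Hoxb6 was at 49.9 and 40.8 CPM in WT A and WT B and at 61.9 and 50.8 in CKO A and CKO B. At log2 0.31 ± 0.15 it did not pass either (edgeR adjusted p = 0.230).

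The HoxB genes from Hoxb2 to Hoxb5 had log2 differences below 0, none of which passed. Hoxb5, the HoxB gene with the highest RPKM in WT and a known regulator of lung branching, was at 95.5 and 71.1 CPM in WT A and B and 71.2 and 62.5 CPM in CKO A and B. WT A alone stood apart, and the difference was -0.32 ± 0.16 on the log2 scale (edgeR adjusted p = 0.262). Hoxb4, known for expanding blood stem cells, was at 46.2, 36.5, 28.7 and 32.7 CPM in the same order, a log2 difference of -0.43 ± 0.15 (edgeR adjusted p = 0.114). Hoxb3 was at 44.8, 31.6, 25.9 and 29.9 CPM, with -0.45 ± 0.18 (edgeR adjusted p = 0.167), and with no filter it was called lower (edgeR adjusted p = 0.0431). Hoxb2 was at 29.3, 21.4, 22.1 and 21.3 CPM, with a log2 difference of -0.22 ± 0.17 (edgeR adjusted p = 0.457). In each of these 4 genes WT A held the highest value. Without WT A, which leaves the libraries with the shared number in their names, the log2 values were 0.03 for Hoxb2, -0.17 for Hoxb3, -0.24 for Hoxb4 and -0.08 for Hoxb5. Hoxb1, the most 3′ gene of the cluster and a hindbrain gene, had 6, 7, 5 and 2 reads and did not pass the filter.

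The make-up of HoxB reads differed between the libraries. Hoxb6 to Hoxb9 together held 24.9% of HoxB reads in WT A and 26.9% in WT B, and 40.5% in CKO A and 38.2% in CKO B. Hoxb7 to Hoxb9 alone held 7.59% and 8.32% in WT and 15.7% and 16.8% in CKO. In CPM the 5 genes from Hoxb1 to Hoxb5 summed to 216 and 161 in WT and 148 and 146 in CKO, and the 4 genes from Hoxb6 to Hoxb9 to 71.7 and 59.1 in WT and 101 and 90.6 in CKO. These sums were formed after the gene values were seen and carry no test.

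**Figure D3:**
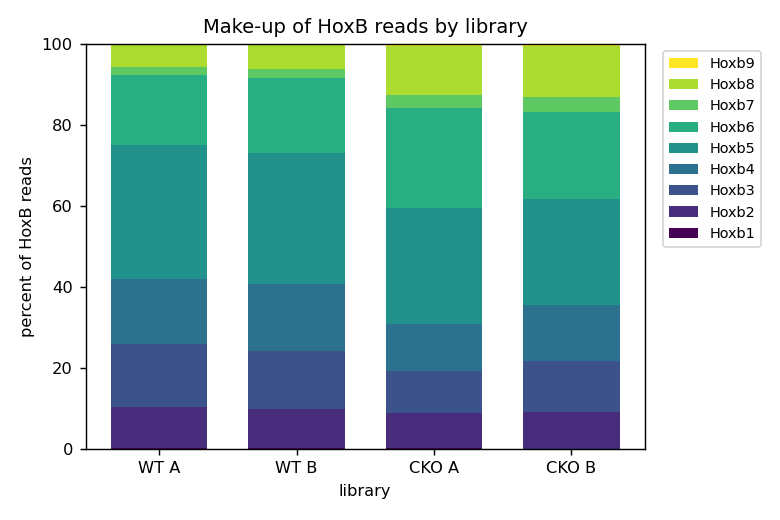
Share of HoxB reads (vertical axis, percent) taken by each of the 9 HoxB genes in each library, stacked from Hoxb1 at the bottom to Hoxb9 at the top. The Hoxb6 to Hoxb9 blocks together take 24.9% and 26.9% in the WT libraries and 40.5% and 38.2% in the CKO libraries.

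HoxC genes were nearly silent in WT, and 4 of the 6 with a row had more reads in each CKO library than in WT A or WT B. Hoxc9 went the other way. Over all genes tested CKO lay above WT without overlap for 27.7% and below for 29.3%, and Hoxc4 was the only HoxC gene tested. Hoxc4, an anterior HoxC gene active in cervical and thoracic tissue (ENSMUSG00000075394, chromosome 15, 103018934 to 103036852), had 2 and 1 reads in WT A and B and 21 and 35 reads in CKO A and B. The ratio of scaled reads was 18.6 (95% counting interval 6.05 to 92.9), and edgeR called it higher (adjusted p = 0.0182). It was 4.77 without WT A on the log2 scale, against 4.12 ± 0.75 with all libraries. The call was lost without WT B (log2 3.65, edgeR adjusted p = 0.123) and without CKO B (log2 3.61, edgeR adjusted p = 0.104).

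The 3 other HoxC genes with CKO reads were too low for the filter. Hoxc5 (chromosome 15, 102967443 to 103017429) had 0 reads in both WT libraries, 8 in CKO A and 11 in CKO B. The 95% counting interval of its ratio began at 4.65. With 3 reads over both WT libraries taken as a floor, the ratio would be 6.31. Hoxc6 had 1, 2, 7 and 23 reads in WT A, WT B, CKO A and CKO B, a ratio of 9.97 (95% counting interval 3.10 to 51.0). Hoxc13, the most 5′ gene of the cluster and a regulator of hair keratins, had 1, 2, 8 and 17 reads, a ratio of 8.31 (2.53 to 43.0). With no filter, edgeR called Hoxc5 (adjusted p = 0.0168) and Hoxc6 (adjusted p = 0.0258) and did not call Hoxc13 (adjusted p = 0.0749). Such counting intervals cover counting error only, and the floor takes the CKO reads as exact. Each of these 4 genes had more reads in CKO B than in CKO A, and HoxC reads summed to 7 and 8 in WT, 44 in CKO A and 86 in CKO B. Dnmt1 was lower in CKO B (29.5 CPM) than in CKO A (78.0), and with 1 library at each level its part in this order was not tested.

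The HoxC genes with a row that lie between these had no reads in CKO. Hoxc8 had 0 reads in WT A, 2 in WT B and 0 in both CKO libraries, and Hoxc9 had 3, 1, 0 and 0. The 2 genes lie at 102990607 to 102994111 and 102976439 to 102985099 on chromosome 15, inside the annotated span of Hoxc5, and share no exon bases with it. The 95% counting interval of the ratio of CKO to WT reached up to 5.31 for Hoxc8 and 1.51 for Hoxc9, so a difference was not detectable at this depth.

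**Figure D4:**
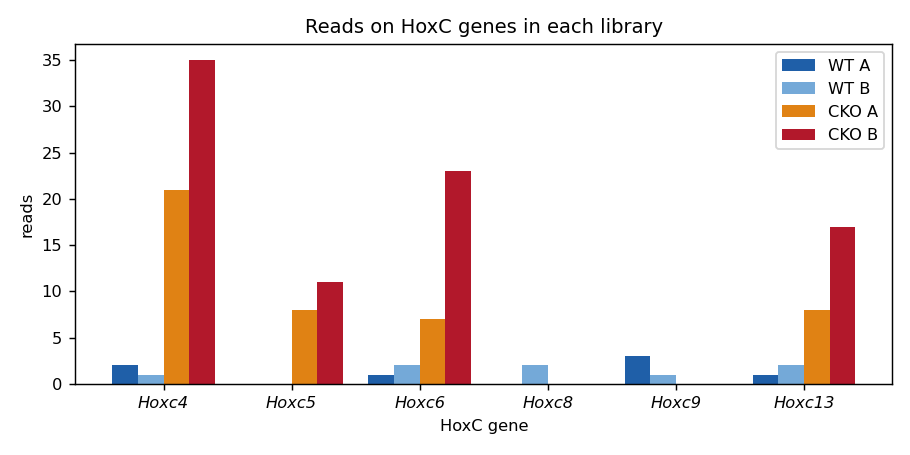
Reads (vertical axis, counts) on each of the 6 HoxC genes in the 4 libraries. Hoxc4, Hoxc5, Hoxc6 and Hoxc13 have 7 to 35 reads in a CKO library and 0 to 2 in a WT library, while Hoxc8 and Hoxc9 have reads in WT libraries alone.

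Of the 7 HoxA genes tested edgeR called 0, with 0 higher and 2 lower at an unadjusted p under 0.05, near the 25.2% of all genes. Hoxa5, the HoxA gene with the highest level, was at 48.7 and 50.1 CPM in WT A and B and 47.6 and 45.2 CPM in CKO A and B. The CKO values lay just under the WT values, and the log2 difference was -0.09 ± 0.11 (edgeR adjusted p = 0.650). Hoxa3, a pharyngeal arch gene, was at 43.8, 40.6, 28.3 and 34.2 CPM in the same order, with the lowest p among the members with values below 0 (log2 -0.43 ± 0.13, edgeR adjusted p = 0.0850). It was called lower without CKO B (log2 -0.57, edgeR adjusted p = 0.0320). Hoxa2, another hindbrain and arch gene, was at 9.91, 10.1, 7.68 and 7.02 CPM (log2 -0.45 ± 0.18, edgeR adjusted p = 0.164). Among the HoxA genes reported here the groups did not overlap for Hoxa2, Hoxa3, Hoxa5 and Hoxa6, all with CKO below WT. Over all genes tested CKO lay below WT without overlap for 29.3% and above for 27.7%.

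Further HoxA members were lower in level or near 0. Hoxa4 was at 12.1, 8.10, 9.96 and 8.06 CPM in WT A, WT B, CKO A and CKO B and Hoxa7 at 4.87, 5.65, 5.44 and 5.47, and in both the groups overlapped. Their signs turned without WT A, from -0.16 to 0.17 for Hoxa4 and from 0.05 to -0.04 for Hoxa7. Hoxa6 was at 1.84, 2.00, 1.33 and 1.08 CPM (log2 -0.67 ± 0.37, edgeR adjusted p = 0.300). The posterior genes Hoxa9, Hoxa10 and Hoxa13 had at most 2 reads in any library of either genotype.

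**Figure D5:**
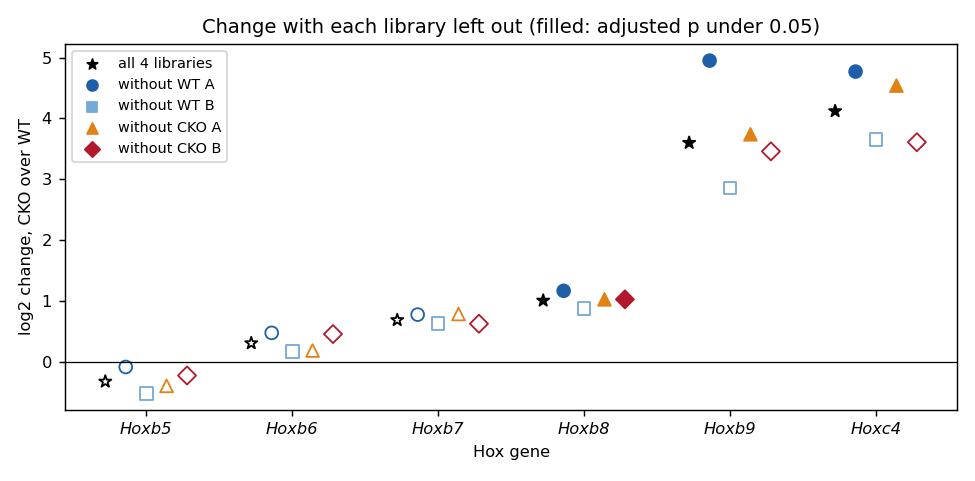
Log2 change in CKO against WT (vertical axis) of 6 Hox genes with all 4 libraries and with each library left out in turn, filled at an edgeR adjusted p under 0.05. Hoxb8 lies between 0.88 and 1.17 when a library is left out, and without WT B none of the 6 genes is called.

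Reads of neighbouring transcripts could be shared, since the use of strand in counting is not given. Hoxb8, Hoxb9, Hoxc4, Hoxc6 and Hoxc13 shared no exon bases with another GENCODE M21 gene. Hoxb3 shared 52.9% of its exon bases with the antisense gene Hoxb3os, and Hoxa3 27.1% with several transcripts of either strand. Besides the Hox genes, 18 rows lay inside the 4 cluster spans, and 13 of them were tested. Of these 2 were lower in CKO and 0 higher, beside 2.75% and 4.85% of all genes tested. Both lay on the strand opposite to Hoxa3 and shared exon bases with it, in a set picked by position after the values were seen. GENCODE M21 types Hoxaas2 as a processed transcript and 5730596B20Rik as protein coding. Hoxaas2 was at 8.59 and 8.25 CPM in WT A and B and 3.80 and 4.27 CPM in CKO A and B, 2.09-fold lower (edgeR adjusted p = 0.0221). 5730596B20Rik was at 3.42, 4.14, 1.63 and 1.51 CPM, 2.40-fold lower (edgeR adjusted p = 0.0449). Hoxaas2 was not called without WT A (adjusted p = 0.115) or without WT B (adjusted p = 0.127), and 5730596B20Rik was called with a library left out only without CKO A. Mir10a, the miR-10a hairpin between Hoxb4 and Hoxb5, had 11, 13, 3 and 0 reads and did not pass (edgeR adjusted p = 0.105).

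Few genes that work with or upstream of Hox proteins were called. Of the 9 TALE cofactors, homeodomain partners of Hox proteins on DNA, 2 fell and 0 rose, with a median log2 change of -0.16 against -0.01 over all genes. The shares called over all genes tested were 2.75% lower and 4.85% higher. Meis1 was at 118 and 112 CPM in WT A and B and 81.2 and 76.3 CPM in CKO A and B, 1.46-fold lower (edgeR adjusted p = 0.0257), and Meis3 at 40.0, 41.2, 28.3 and 26.7, 1.48-fold lower (edgeR adjusted p = 0.0244). The groups did not overlap for either gene. Meis2 had a log2 value of 0.55 ± 0.21 with an edgeR adjusted p of 0.149. Without WT A neither was called (edgeR adjusted p = 0.135 and 0.136), nor without WT B (0.109 and 0.205), and without CKO B Meis3 alone was (0.0639 for Meis1, 0.0419 for Meis3).

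Of 32 Polycomb genes, whose products repress Hox genes, edgeR called 0, with 3 higher and 5 lower at an unadjusted p under 0.05 (25.2% of all genes), while DESeq2 called 1 higher and limma-voom 0. Their median log2 change was -0.12. Pcgf5 had a log2 difference of -0.86 ± 0.25 (edgeR adjusted p = 0.0777) and Phc3 one of -0.49 ± 0.17 (edgeR adjusted p = 0.125). The 14 Trithorax and H3K27 demethylase genes, which keep Hox genes active, had a median log2 change of -0.22. Of them 1 fell, beside 2.75% of all genes tested. It was Kmt2d, a histone H3K4 methyltransferase gene, at 344, 354, 172 and 241 CPM, 1.69-fold lower (edgeR adjusted p = 0.0350), a call lost without WT A (adjusted p = 0.0902) and without WT B (adjusted p = 0.165). Kmt2a, the methyltransferase best known for Hox control, had a log2 difference of -0.49 ± 0.17 (edgeR adjusted p = 0.129) and Kmt2b one of -0.34 ± 0.13 (edgeR adjusted p = 0.163).

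Of 16 tested genes of retinoic acid signalling, a known inducer of Hox genes, 1 rose and 1 fell, with a median log2 change of 0.08. By the same call 4.85% of all genes tested rose and 2.75% fell. Stra6, a retinol transporter gene, had 2, 7, 33 and 38 reads and was 7.82-fold higher (log2 2.97 ± 0.60, edgeR adjusted p = 0.0265). Its log2 values were 2.44 without WT A and 3.97 without WT B. Like Hoxb9 and Hoxc4, Stra6 passed the filter through its CKO reads alone, so it could enter the test only by differing. Rdh10, which makes retinal from retinol, was at 88.1, 85.6, 66.3 and 60.1 CPM, 1.37-fold lower (edgeR adjusted p just under the threshold). With 1 library left out, the calls of Stra6 and Rdh10 were kept only without CKO A (edgeR adjusted p = 0.0354 and 0.0296), and otherwise ran from 0.0651 to 0.109 and from 0.123 to 0.231. Of 24 tested homeobox genes outside the clusters 1 rose and 1 fell, beside the same 4.85% and 2.75% of all genes. Their median log2 change was 0.55. Irx3 had 17 and 11 reads in WT A and B and 46 and 67 in CKO A and B (log2 2.00 ± 0.48, edgeR adjusted p = 0.0444) and Hlx, a mesenchymal homeobox gene, was 1.58-fold lower (edgeR adjusted p = 0.0373). Both were called without CKO A (edgeR adjusted p = 0.0151 and 0.00234) and with no other library left out. Lhx2 did not pass (log2 2.87 ± 0.82, edgeR adjusted p = 0.0727). Of 19 tested transcripts and genes inside or beside the clusters Hoxaas2 alone was called, beside 2.75% of all genes tested called lower. The median was -0.11, and Calcoco1, a neighbour of HoxC, was not called (log2 -0.41 ± 0.13, edgeR adjusted p = 0.0899).

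Markers of other cells moved with the genotype in part. For comparison, edgeR called 4.85% of all genes tested higher and 2.75% lower. Immune markers had 5 of 10 tested members higher and summed to 36.1 and 47.0 CPM in WT and 81.5 and 54.7 in CKO. Schwann cell and neural crest markers had 3 of 4 tested members higher and summed to 26.4 and 31.8 CPM in WT and 89.9 and 103 in CKO. Of the last list Ngfr, S100b and Cdh19 rose, and Cdh19 passed the filter through its CKO reads alone. The defining gene Sox10, too low to be tested, had 0 reads in both WT libraries, 5 in CKO A and 3 in CKO B. Erythroid markers had 2 of 5 tested members lower, and of 8 lung mesenchyme factors 1, Tbx2, was lower (edgeR adjusted p = 0.0350). Markers of other lung fibroblasts had 2 of 11 higher and contractile markers 1 of 11. Epithelial, endothelial, mesothelial, pericyte and chondrocyte markers had 0 called in edgeR. At an unadjusted p under 0.05, 1 endothelial gene was higher, 1 chondrocyte gene lower, and 1 pericyte gene higher and 1 lower, against 25.2% of all genes. Every gene with a row had a read in some library, so no marker with a row could be at 0 in all of them. Of the listed genes, 8 of 9 lung mesenchyme factors and 6 of 7 Schwann cell and neural crest markers had a row. The part of any of these in the Hox values was not tested.

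The authors' deposited table calls 4 of the 27 members at an adjusted p under 0.05, all higher in the mutant, where it calls 3.04% of 31247 genes higher and 1.26% lower. The authors' deposited table gives adjusted p-values of 2.10e-05 for Hoxb8, 0.000311 for Hoxb9, 0.000490 for Hoxc4 and 0.0271 for Hoxc5. For Hoxb7 the authors' deposited table gives 0.162.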

How the data were processed

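The authors deposited 1 table of raw read counts for 4 libraries. Beside them, per the file headers, stand their own log2 fold change (mutant over control) and its p-value, raw and adjusted. The submitters' processing notes name STAR, Trimmomatic 0.36, cutadapt 2.5, FastQC 0.11.8, edgeR 3.28.1 and GRCm38.p6, and the read counter is not given in the sources used here. The 4 deposited columns of RPKM were not used. The gene length listed with them was 1.00 to 2.75 times the merged exon length of a Hox gene, so levels between genes were recomputed from the deposited counts on merged GENCODE M21 exons (GRCm38; 31183 of 31247 identifiers matched, 99.8%). Columns named Control and Mutant were read as WT and CKO. The main test ran in edgeR 4.0.16 (R 4.3.3), with filterByExpr at a minimum count of 10, TMM scaling, glmQLFit and glmQLFTest (robust). P-values were adjusted by Benjamini-Hochberg across 15210 genes, and 0.05 was the threshold. SE is the log2 change divided by the root of F. Counts of 1 read were worth 0.0377 to 0.0438 CPM. On simulated counts of 15210 genes edgeR recovered 57 of 100 genes changed 2-fold and 97 of 100 changed 4-fold, and called 7 of 15010 unchanged genes. The simulation gave all genes the same spread (biological coefficient of variation 0.16) and set no library apart. Its rates therefore need not hold for these libraries or for low-count Hox genes. Alternatives used DESeq2 1.42.0, limma 3.58.1 (voom), RLE factors, library size alone, other filters, a threshold of 0.01 and 1 library left out. The members and lists were chosen with earlier results of these data known. All Hox members may be named, and of each related list its called genes and, under 3 called, those with the lowest p up to 3. Some of these genes are counted but not reported here by name. Promoter windows are RefSeq's on GRCm38.p6. Their rule took the members with the lowest p in each direction and the top gene of each cluster, and of these Hoxa3 and Hoxc4, whose windows lie in exons, and Hoxd9 are not shown.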

Additional observations from a re-analysis of the deposited data

How the results depend on the processing

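No paired analysis was possible because the count columns carry no replicate numbers, and the number shared by the column names of WT B and both CKO libraries marks no pair. The 3 higher Hox calls were also 3 in DESeq2, in limma-voom, with RLE factors and with library size alone. They were 6 with no filter on low counts (with 1 lower), where more genes enter, 1 with a mean CPM of at least 1, where Hoxb9 and Hoxc4 leave, and 1 at an adjusted p under 0.01. With 1 library left out they ran from 0 to 3 and lower calls from 0 to 1. A genotype then has 1 library, which is assumed to vary like the other genotype. Of 174 values of single Hox genes 161 kept direction and call, 7 lost the call, 3 gained it and 3 turned sign, all 3 without WT A (Hoxa4 at 0.17, Hoxa7 at -0.04 and Hoxb2 at 0.03, with ranges over the libraries left out of -0.42 to 0.17, -0.04 to 0.17 and -0.43 to 0.03); the cause was not tested. Over all genes, 738 higher and 419 lower calls became 1543 and 916 with no filter and 199 and 42 at 0.01, and ran from 248 to 1289 and from 91 to 553 with 1 library left out.

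For the related lists the counts were small. With 1 library left out, cofactors ran from 0 to 2 higher and from 0 to 2 lower, Polycomb genes from 0 to 3 and from 0 to 1, and Trithorax genes from 0 to 3 lower. Retinoic acid genes ran from 0 to 3 higher and from 0 to 2 lower, transcripts in or beside the clusters from 0 to 2 lower, and other homeobox genes from 0 to 5 higher and from 0 to 1 lower. With no filter 1 cofactor, 2 Polycomb, 4 retinoic acid and 8 other homeobox genes were higher, and 1 Polycomb, 3 Trithorax and 3 other homeobox genes lower. DESeq2 called 1 Polycomb, 2 retinoic acid and 2 other homeobox genes higher, and library size alone 1 Polycomb gene. RLE factors and limma-voom each called 0 other homeobox genes higher and 0 retinoic acid genes lower. A mean CPM of at least 1 gave 0 retinoic acid genes in either direction, 0 other homeobox genes higher and 0 Trithorax genes lower. At an adjusted p under 0.01 the related lists held 0 calls. The cause of these moves was not tested. Depth limits HoxC and HoxD, where most values are under 10 reads.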
